A study of Mus musculus with 6 samples.

Results

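The genes described here encode the subunits of voltage-gated sodium and calcium channels. They were chosen by symbol, as the sodium channel genes named Scn with a number and a or b and the calcium channel genes named Cacna1, Cacna2d, Cacnb or Cacng, which gave 40 of the 55341 genes in the count tables. RNA was sequenced from mouse cerebellar granule neurons (CGNs) in culture, with 3 libraries of a DMSO control and 3 of GSK-126, which inhibits EZH2, the enzyme that places methyl groups on lysine 27 of histone H3. The cells of both groups came from CD1-IGS pups at postnatal day 6 to 8, whose granule neuron progenitors were purified on Percoll, and both groups were treated with AraC at DIV2, where DIV counts days in vitro. By the study's methods DMSO or GSK-126 went in at DIV3 and the RNA is from DIV5. The sample titles name CGN and DIV3, while the labels also name cerebellar tissue. A biological replicate was CGNs from the pooled cerebella of litters, and the dose at DIV3 is not given in the sources used here. Of the 40 genes, 29 had 10 or more counts in at least 3 libraries, and 30 passed the expression filter of the test, which also kept Scn9a.

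A voltage-gated sodium channel is built from a large alpha subunit that forms the pore and small beta subunits that set its gating and its place in the membrane. It carries the rising phase of the action potential, in neurons mostly from the axon initial segment. A voltage-gated calcium channel is built from a pore-forming alpha1 subunit with an extracellular alpha2delta subunit and a cytoplasmic beta subunit, both of which help to bring the pore to the membrane. It turns depolarization into calcium entry, which releases transmitter at the parallel fibre terminals of granule neurons and signals to the nucleus. The gamma subunits were named after a calcium channel subunit of skeletal muscle, but several of them, with stargazin as the best known, are auxiliary subunits of AMPA-type glutamate receptors.

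Promoters are shown for 2 genes whose RNA moved together in the comparison given further on. The windows printed were chosen because they hold the motifs marked in them, so the presence of those motifs is not a finding. RefSeq holds 41 promoter windows for 30 of the 40 genes, each from 250 bases before to 50 bases after a gene start, in GRCm38.p6. The window of Scn2a at chr2:65668436-65668735 on the plus strand is 47.7% G and C with 9 CpG, and its capitals mark the motif TATAAA. The window of Cacnb4 at chr2:52676094-52676393 on the minus strand is 78.3% G and C with 40 CpG, and its capitals mark the motif GGGCGG or its reverse complement CCGCCC, which share letters where matches overlap.
Scn2a: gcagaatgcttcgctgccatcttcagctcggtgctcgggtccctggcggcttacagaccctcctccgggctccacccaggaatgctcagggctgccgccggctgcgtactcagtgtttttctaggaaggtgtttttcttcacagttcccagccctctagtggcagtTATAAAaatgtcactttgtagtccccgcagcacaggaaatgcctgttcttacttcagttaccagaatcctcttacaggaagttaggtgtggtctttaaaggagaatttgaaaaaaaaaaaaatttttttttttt
Cacnb4: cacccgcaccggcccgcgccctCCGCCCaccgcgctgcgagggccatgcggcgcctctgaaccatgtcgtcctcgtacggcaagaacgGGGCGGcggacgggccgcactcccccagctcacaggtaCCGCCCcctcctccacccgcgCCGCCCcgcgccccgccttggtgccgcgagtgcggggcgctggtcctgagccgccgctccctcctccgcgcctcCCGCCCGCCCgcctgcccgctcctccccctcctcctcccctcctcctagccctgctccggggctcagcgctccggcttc
On either strand, TATAAA was in 13.6% of all 32851 RefSeq promoter windows and in 2 of the 41 windows of channel genes, those of Scn2a and Cacna1d. GGGCGG was in 35.7% of all windows and in 16 of the 41, and CAGCTG was in 16.3% of all windows and in 13 of the 41. The median window of the channel genes was 59.3% G and C with 9 CpG, and the median of all windows was 52.7% with 7 CpG. RefSeq lists further starts for both genes, and the contrast in base composition depends on the windows taken. Another window of Scn2a is 33% G and C with 3 CpG. Other windows of Cacnb4 are 69.7% with 27 CpG and 49.7% with 5 CpG. A match of letters is a description of the window and not a bound site.

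The libraries held between 7407189 and 13092763 counts on genes, and lines naming no gene took 58.7% to 60.7% of the reads listed. Libraries with the same replicate number deviated together, and the replicate number was therefore used as a block beside the fit without it. Replicate 2 of both groups stood apart on the main principal component, which held 46.4% of the variance. As a check of the labelled cells, all 14 granule neuron markers were measured, and their summed level was 4236, 7411 and 4835 CPM (counts scaled to library size) with DMSO and 3233, 5456 and 3532 CPM in GSK-126 libraries in replicates 1, 2 and 3. In the fit with the block 11 of these 14 were lower with GSK-126 and 1 was higher. Over all genes tested, 5.09% were lower and 3.35% were higher in that fit, which stands beside each count of markers here. The log2 fold changes of the 14 were unequal, from -1.95 (Slc17a7) to 0.33 (Barhl1, the 1 that was higher). Pax6 (-0.07) and Zic2 (-0.20) gave no call. Of the 7 astroglial markers, 1 was higher and 0 were lower, with sums of 2314 to 6985 CPM and 2157 to 7371 CPM. Of the 7 GABAergic interneuron markers, 4 were lower, with sums of 312 to 339 CPM with DMSO and 221 to 278 CPM in GSK-126 libraries, which do not overlap. The markers of progenitors (0 lower and 2 higher of 6 tested, sums 599 to 869 and 706 to 996 CPM), oligodendrocyte lineage (0 and 1 of 7, 427 to 737 and 491 to 752 CPM), microglia (0 and 1 of 6, 149 to 320 and 205 to 373 CPM), endothelial and mural cells (0 and 2 of 5, 419 to 719 and 633 to 891 CPM) and meningeal fibroblasts (0 and 1 of 5, 7082 to 9377 and 7915 to 10064 CPM) followed the same order of DMSO and then GSK-126. The Purkinje cell markers (0 and 0 of 5, 44.9 to 67.8 and 58.1 to 69.9 CPM) and skeletal muscle markers (0 and 0 of 2, 2.19 to 10.5 and 3.77 to 10.3 CPM) gave no call. In the progenitor list the 2 higher were Ccnd2 and Dcx, while Mki67, Top2a, Mycn and Hes6 gave no call. Atoh1 and Gli1 of that list did not exceed 0.754 and 1.12 CPM and were not tested. No change in progenitors is read from the list. No list had a marker at 0 in every library. In bulk RNA, fewer cells of a type and less RNA per cell cannot be told apart, and the part of cell composition in the results that follow was not tested.

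The plot of levels shows which subunits these cultures expressed most, as CPM per kb of exon, the scale on which genes of unequal length can be compared. Among the alpha1 genes, Cacna1a led with a DMSO mean of 41.4 CPM per kb, with Cacna1b at 23.3, Cacna1e at 18.7 and Cacna1g at 18.5 CPM per kb. The order of Cacna1b and Cacna1e depended on the length used, since on the longest transcript Cacna1e held a DMSO mean of 17.1% of the family sum and Cacna1b 13.7%. Among the sodium alpha genes, Scn2a was at 16.4 and Scn8a at 13.5 CPM per kb, and their ranges over the DMSO libraries overlapped. Among the auxiliary genes, Cacna2d3 was at 16.4, Cacnb3 at 19.4 and Cacng4 at 31.8 CPM per kb, each the highest DMSO mean of its family. Scn2b was at 9.85 CPM per kb. In DMSO replicate 2, Cacna2d1 (22.5 CPM per kb) was above Cacna2d3 (20.3 CPM per kb). Cacng2 (21.5 CPM per kb) was above Cacng4 (20.1 CPM per kb) in the same library. The remaining genes spanned the range down to Cacna2d4, at 0.133 CPM per kb.

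**Figure D1:**
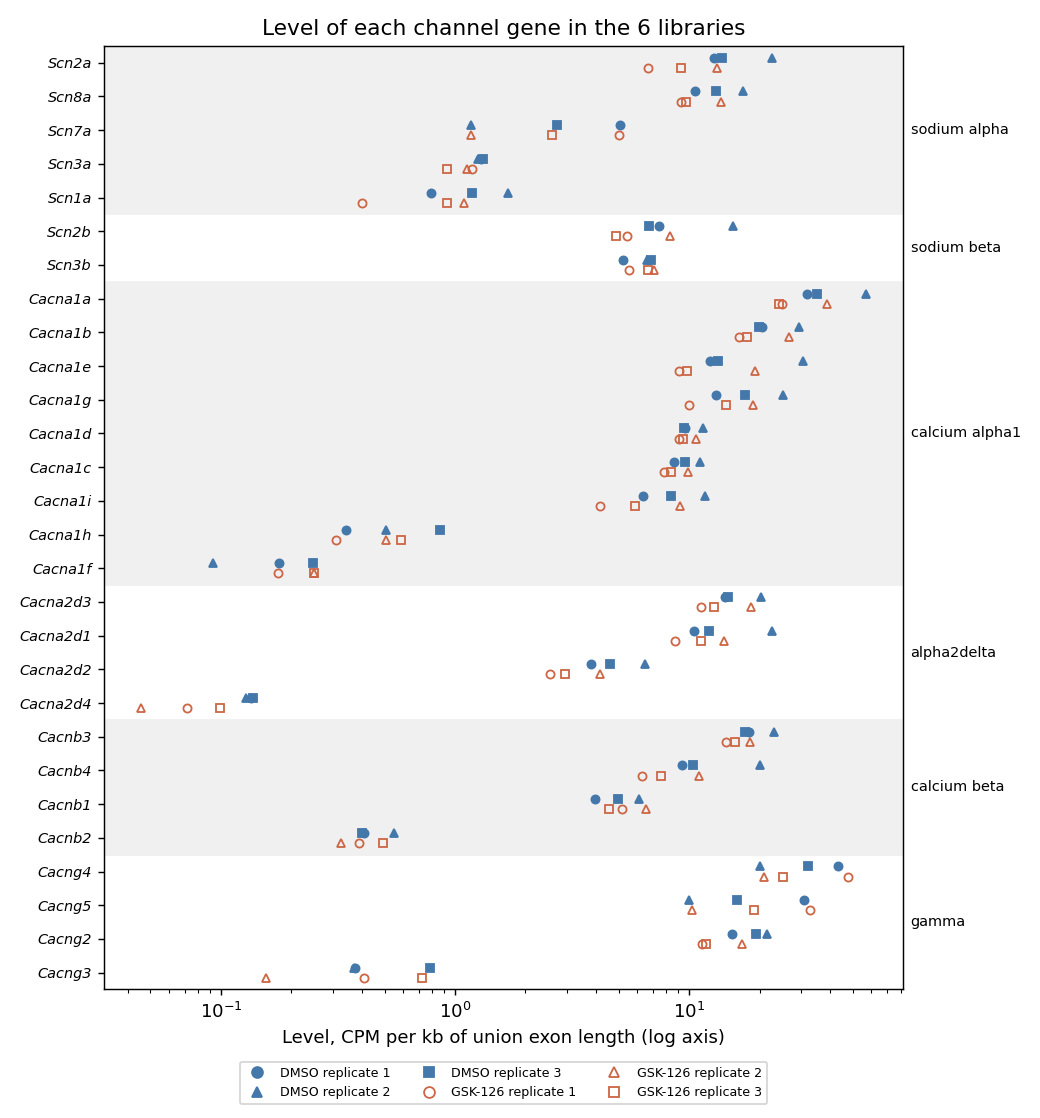
Level of 28 of the 29 genes with 10 or more counts in at least 3 libraries, as CPM per kb of exon on a log axis, with filled points for DMSO, open points for GSK-126 and the marker shape for the replicate number. Cacna1a lies highest in 2 of the 3 DMSO libraries and Cacna2d4 lowest in mean, and in most rows replicate 2 sits to the right of replicates 1 and 3 in both groups.

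GSK-126 was compared with DMSO in all 6 libraries with edgeR's quasi-likelihood test. Without a block, 0 of the 30 tested channel genes were lower and 0 were higher at a Benjamini-Hochberg adjusted p under 0.05, and the same was true of all 16729 genes tested, with 0% called lower and 0% called higher. At an unadjusted p under 0.05 this fit held 3 channel genes (Scn2a, Cacng2 and Cacna2d2) and 665 genes in all. DESeq2 without a block called 0 channel genes of the 26 to which it gave an adjusted p, where it called 0.0146% of all such genes lower and 0.139% higher. With the replicate number as a block, edgeR called 12 of the 30 channel genes lower with GSK-126 and 0 higher, where 5.09% of all genes tested were lower and 3.35% were higher. The 12, in order of p, were Scn2a, Cacna1e, Cacnb4, Cacna1a, Cacng2, Cacna1i, Cacna2d2, Scn2b, Cacna1g, Scn8a, Cacna2d1 and Scn1a. DESeq2 with the block called 11 of 23 lower and 0 higher, without Scn1a, where it called 5.52% of all genes lower and 3.28% higher. Without the block, the adjusted p was 0.953 for each of the 12 in edgeR after Benjamini-Hochberg adjustment. The falls named below rest on the block throughout.

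The direction was shared more widely than the calls. Of the 30 tested genes, 24 had a log2 fold change below 0 and 6 above 0, with a median of -0.28 against -0.0071 for all genes tested. In all 3 pairs of libraries with the same number, 19 of the 30 were lower with GSK-126, where 22.8% of all genes were, and 2 (Cacng5 and Scn9a) were higher in all 3, where 19.5% of all genes were. The groups themselves mostly overlapped. Every GSK-126 library lay below every DMSO library for 2 of the 30, Cacna2d4 and Scn3a, where 4.72% of all genes did so, and for 0 of the 30 every GSK-126 library lay above, where 4.72% of all genes did.

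**Figure D2:**
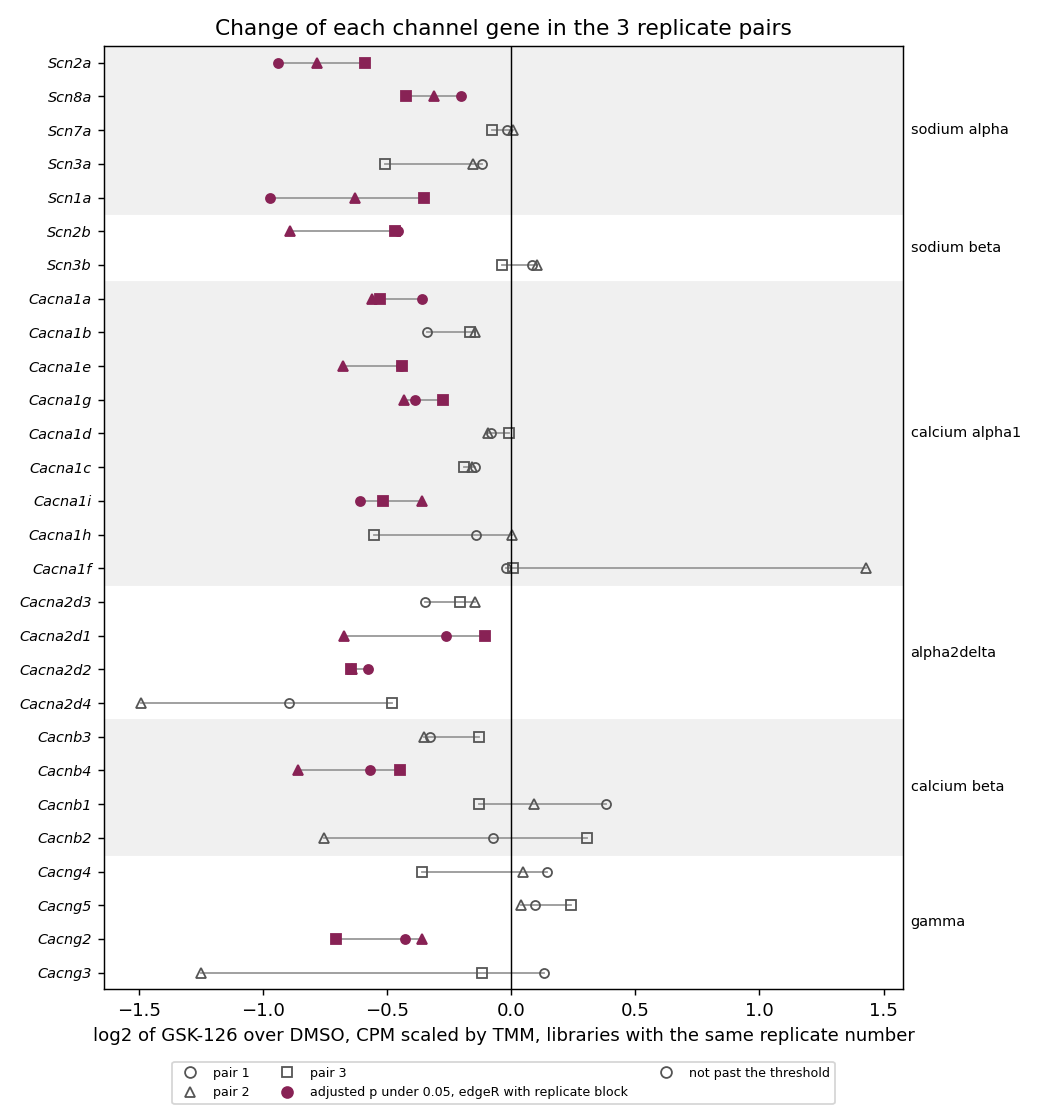
Log2 ratio of GSK-126 over DMSO for the same 28 genes in replicate pairs 1, 2 and 3, from CPM scaled by TMM, with filled points for the 12 genes at an adjusted p under 0.05 in edgeR with the replicate block. All 3 points of each of the 12 lie left of 0, and the 3 points of Cacna2d2 sit between -0.65 and -0.58.

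Among the sodium channel alpha genes, Scn2a, Scn8a and Scn1a fell with GSK-126, 3 of the 6 tested. Scn2a (ENSMUSG00000075318.12, chromosome 2, 65620771 to 65767447 in GRCm38), whose channel is an early main carrier of the axonal sodium current in excitatory neurons, was at 163, 288 and 176 CPM in DMSO replicates 1, 2 and 3. With GSK-126 it was at 84.8, 168 and 117 CPM. Only GSK-126 replicate 2 reached into the DMSO range, and each GSK-126 library was below the DMSO library of its number. The log2 fold change was -0.77 (standard error 0.08, Benjamini-Hochberg adjusted p = 3.44e-06 in edgeR with the block), the smallest p of the 30 channel genes. Scn8a (ENSMUSG00000023033.14, chromosome 15, 100869858 to 101045938), which takes over at mature axon initial segments and nodes and carries resurgent current in the cerebellum, was at 167, 268 and 206 CPM with DMSO. It was at 145, 216 and 153 CPM in GSK-126 libraries, so the groups overlapped while all 3 pairs moved down. Scn8a thus had a log2 fold change of -0.31 (standard error 0.07, Benjamini-Hochberg adjusted p = 0.011 in edgeR with the block), and the call was lost without pair 3 (Benjamini-Hochberg adjusted p = 0.118 in edgeR). Scn1a (ENSMUSG00000064329.13, chromosome 2, 66270778 to 66440840), the alpha subunit best known from inhibitory interneurons, was low, at 8.77, 18.8 and 13.1 CPM with DMSO and 4.47, 12.2 and 10.3 CPM in GSK-126 libraries. The groups overlapped here too. The log2 fold change was -0.63 (standard error 0.19, Benjamini-Hochberg adjusted p = 0.0415 in edgeR with the block), and the call was lost without pair 1 (adjusted p = 0.243) or pair 2 (adjusted p = 0.184) in edgeR after Benjamini-Hochberg adjustment.

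The other sodium alpha genes gave no call. Scn3a, the alpha subunit of the embryonic and newborn brain, was at 15.6 to 16.3 CPM with DMSO and 11.5 to 14.8 CPM in GSK-126 libraries, ranges that did not touch. In the block fit the log2 fold change was -0.25 (standard error 0.16, Benjamini-Hochberg adjusted p = 0.397 in edgeR). Scn7a, a sodium sensor of glial cells rather than a voltage-gated pore, was at 37.3, 8.58 and 19.99 CPM with DMSO and 36.8, 8.62 and 19.0 CPM in GSK-126 libraries. Its libraries were thus set apart by replicate number and lay close together within each pair.

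Of the sodium beta genes, Scn2b fell and Scn3b gave no call. Scn2b (ENSMUSG00000070304.12, chromosome 9, 45117782 to 45130070) encodes a beta subunit that binds the pore through a disulfide bond. It was at 34.5, 71.7 and 31.4 CPM with DMSO. With GSK-126 it was at 25.2, 38.7 and 22.7 CPM, lower within each pair although GSK-126 replicate 2 was above DMSO replicates 1 and 3. The log2 fold change was -0.62 (standard error 0.12, Benjamini-Hochberg adjusted p = 0.00237 in edgeR with the block), and the call was lost without pair 2 (adjusted p = 0.0774, same fit and Benjamini-Hochberg adjustment). Scn3b, a beta subunit that binds without such a bond, ranged from 28.6 to 38.7 CPM over the 6 libraries, with a log2 fold change of 0.05 (standard error 0.11) in the block fit.

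The calcium alpha1 genes held 4 of the 12 falls, from 9 tested. Cacna1a (ENSMUSG00000034656.17, chromosome 8, 84388440 to 84640246), the P/Q-type pore of most central synapses and a gene of hereditary ataxia, was at 364, 652 and 401 CPM with DMSO and 284, 443 and 277 CPM in GSK-126 libraries. Cacna1a had a log2 fold change of -0.48 (standard error 0.07, Benjamini-Hochberg adjusted p = 1.57e-04 in edgeR with the block). Cacna1e (ENSMUSG00000004110.16, chromosome 1, 154390731 to 154884501), the R-type pore, was at 309, 770 and 336 CPM with DMSO and 228, 481 and 248 CPM in GSK-126 libraries. In both genes GSK-126 replicate 2 was above DMSO replicates 1 and 3, while each pair moved down. For Cacna1e the log2 fold change was -0.52 (standard error 0.07, Benjamini-Hochberg adjusted p = 8.89e-05 in edgeR with the block). For Cacna1a, 435 bp or 3.81% of the exons overlap Gm16183 on the opposite strand.

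The other falls of this family were in T-type genes, whose channels open at low voltage. Cacna1g (ENSMUSG00000020866.17, chromosome 11, 94408391 to 94474198) was at 132, 256 and 176 CPM with DMSO and 101, 189 and 146 CPM in GSK-126 libraries. Cacna1i (ENSMUSG00000022416.15, chromosome 15, 80287238 to 80398279) was at 62.6, 115 and 82.8 CPM with DMSO and 41.1, 89.9 and 57.8 CPM in GSK-126 libraries. Both genes overlapped between the groups and were lower in each pair. The log2 fold changes were -0.36 (standard error 0.08, adjusted p = 0.00347) for Cacna1g and -0.49 (standard error 0.09, adjusted p = 0.00127) for Cacna1i in edgeR with the block and Benjamini-Hochberg adjustment. Cacna1h, the remaining T-type gene, was at 3.03 to 8.43 CPM and gave no call.

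The pores that did not pass the test included the N-type gene and both L-type genes of brain. Cacna1b, the N-type pore of presynaptic terminals, ranged from 197 to 294 CPM with DMSO and from 162 to 266 CPM in GSK-126 libraries, with a log2 fold change of -0.22 (standard error 0.07, Benjamini-Hochberg adjusted p = 0.081 in edgeR with the block). Cacna1c and Cacna1d, the L-type pores that couple depolarization to gene transcription, had log2 fold changes of -0.16 (standard error 0.07) and -0.06 (standard error 0.08), with Benjamini-Hochberg adjusted p of 0.184 and 0.698 in the same edgeR fit. Cacna1c was at 183 to 235 CPM with DMSO and Cacna1d at 120 to 144 CPM, and both overlapped with GSK-126. Cacna1f, the L-type pore of photoreceptors, did not exceed 2.27 CPM.

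Among the alpha2delta genes, Cacna2d1 and Cacna2d2 fell, and Cacna2d3 and Cacna2d4 gave no call. Cacna2d1 (ENSMUSG00000040118.15, chromosome 5, 15934691 to 16374511), a target of gabapentin, was at 130, 280 and 150 CPM with DMSO and 108, 176 and 140 CPM in GSK-126 libraries. Its log2 fold change was -0.35 (standard error 0.09, Benjamini-Hochberg adjusted p = 0.0196 in edgeR with the block), and without pair 2 it was -0.18 and the call was lost (Benjamini-Hochberg adjusted p = 0.246 in edgeR). Pair 2 held its largest difference, and the groups overlapped. Cacna2d2 (ENSMUSG00000010066.15, chromosome 9, 107399612 to 107529343), the gene mutated in the ataxic ducky mouse, was at 30.2, 51.4 and 36.6 CPM with DMSO and 20.2, 33.0 and 23.4 CPM in GSK-126 libraries. Its 3 pairs were the closest to each other among the 12 falls, at -0.58, -0.64 and -0.65 on the log2 scale. The log2 fold change was -0.62 (standard error 0.12, Benjamini-Hochberg adjusted p = 0.00164 in edgeR with the block). Exons of Cacna2d2 share 82 bp with Gm17141 on the opposite strand.

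Cacna2d3 (ENSMUSG00000021991.9, chromosome 14, 28904943 to 29721864) was the alpha2delta gene with the highest DMSO mean per length. It was at 124, 177 and 128 CPM with DMSO and 97.6, 160 and 111 CPM in GSK-126 libraries. Its log2 fold change was -0.23 (standard error 0.08, Benjamini-Hochberg adjusted p = 0.075 in edgeR with the block). Cacna2d4, known from retina, was at 1.21 to 1.30 CPM with DMSO and 0.431 to 0.935 CPM in GSK-126 libraries. Those ranges were apart, but the low counts left a log2 fold change of -0.91 with a standard error of 0.58 (Benjamini-Hochberg adjusted p = 0.382 in edgeR with the block). Cacna2d4 and Scn3a were singled out here after their values were seen.

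Of the calcium beta genes, Cacnb4 fell and the other 3 gave no call. Cacnb4 (ENSMUSG00000017412.15, chromosome 2, 52428320 to 52676831), the beta subunit lost in the ataxic lethargic mouse and the gene of the G- and C-rich window printed above, was at 83.3, 180 and 92.9 CPM with DMSO and 56.2, 99.1 and 68.1 CPM in GSK-126 libraries. GSK-126 replicate 2 lay above DMSO replicates 1 and 3, and each pair moved down. The log2 fold change was -0.63 (standard error 0.09, Benjamini-Hochberg adjusted p = 1.1e-04 in edgeR with the block). Since 1433 bp or 16% of its exons overlap A430018G15Rik on the opposite strand and the strand setting of the counting is not given in the sources used here, reads of the pair cannot be told apart. Cacnb3 (ENSMUSG00000003352.14, chromosome 15, 98630840 to 98644529), the beta gene with the highest level per length, was at 72.0, 92.8 and 69.2 CPM with DMSO and 57.4, 72.7 and 63.2 CPM in GSK-126 libraries. Its log2 fold change of -0.27 (standard error 0.09) had a Benjamini-Hochberg adjusted p of 0.0701 in edgeR with the block. Cacnb1, the beta subunit of skeletal muscle that is also present in brain, ranged from 18.0 to 29.5 CPM, and Cacnb2, the main beta subunit of heart, from 4.31 to 7.27 CPM over the 6 libraries.

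Of the gamma genes, Cacng2 fell and Cacng3, Cacng4 and Cacng5 gave no call. Cacng2 (ENSMUSG00000019146.2, chromosome 15, 77991748 to 78120028) encodes stargazin, without which granule neurons of the stargazer mouse lack AMPA receptors at the surface. It was at 84.3, 118 and 106 CPM with DMSO and 62.8, 92.4 and 65.05 CPM in GSK-126 libraries, and only GSK-126 replicate 2 was inside the DMSO range. Cacng2 had a log2 fold change of -0.49 (standard error 0.09, Benjamini-Hochberg adjusted p = 0.00112 in edgeR with the block), and 323 bp of its exons overlap A730060N03Rik on the opposite strand. Cacng4 (ENSMUSG00000020723.3, chromosome 11, 107732357 to 107794557) is a relative of stargazin and had the highest DMSO mean per length of the family. It was at 154, 72.0 and 115 CPM with DMSO and 170, 74.3 and 89.6 CPM in GSK-126 libraries. Cacng5, found in Bergmann glia among other cells, was at 118, 38.2 and 61.3 CPM with DMSO and 126.3, 39.3 and 72.4 CPM in GSK-126 libraries. In both genes the replicate numbers set the levels apart by more than the treatment did, and replicate 2 was lowest. Their log2 fold changes with the block were -0.05 (standard error 0.09) and 0.13 (standard error 0.09). Cacng3, a relative of stargazin known from forebrain, was at 0.431 to 2.17 CPM.

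The mix of subunits was compared as each gene's percent of the summed CPM per kb of its family, with no test, since 3 libraries against 3 cannot give an exact permutation p under 0.1. In the sodium alpha family Scn2a held 41.6%, 51.5% and 43.0% with DMSO and 29.4%, 43.3% and 39.1% with GSK-126. Scn8a held 34.6%, 38.6% and 40.5% with DMSO and 40.7%, 44.998% and 41.2% with GSK-126, so its share was higher in every GSK-126 library than in any DMSO library, narrowly at the edge, although its own level fell. In the calcium alpha1 family Cacna1a held 30.7% to 32.2% with DMSO and 26.8% to 30.4% with GSK-126, ranges that did not overlap. Cacna2d2 held 13.1% to 14.6% of the alpha2delta sum with DMSO and 10.9% to 11.3% with GSK-126, and Cacnb1 held 12.3% to 15.1% of the calcium beta sum with DMSO and 15.997% to 19.8% with GSK-126. In all, 4 of the 29 shares did not overlap between the groups, a count for which no share over all genes can be given, so nothing is read from it. Within the pairs, 8 shares were lower with GSK-126 in all 3 and 8 were higher in all 3. Cacnb4 went from 29.4% to 24.0%, from 40.2% to 30.7% and from 31.4% to 26.8% of its family in pairs 1, 2 and 3. Cacng2 went from 17.0% to 12.3%, from 41.3% to 35.0% and from 28.2% to 20.8%, and Scn2b from 34.7% to 22.4%, from 55.6% to 38.6% and from 26.2% to 20.6%. The share of Scn7a ran from 2.66% to 16.5% with DMSO and from 3.86% to 22.1% with GSK-126.

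**Figure D3:**
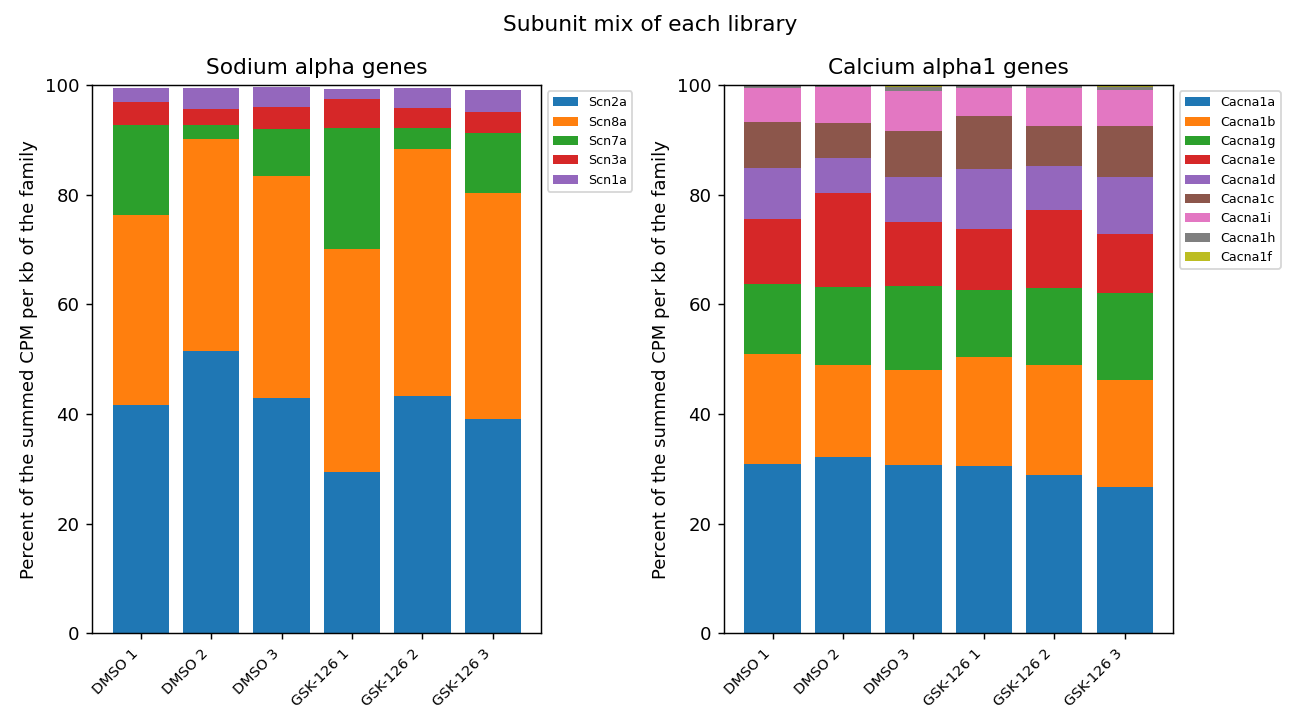
Percent of the summed CPM per kb held by each gene of the sodium alpha family (left) and the calcium alpha1 family (right) in each of the 6 libraries, for genes with 10 or more counts in at least 3 libraries. Scn2a and Scn8a together fill most of every sodium alpha bar, and the Scn8a part is taller in each GSK-126 library than in each DMSO library.

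The spread between replicate numbers, which the block removes, had the same form in both groups. All 12 genes that fell were higher in replicate 2 than in the mean of replicates 1 and 3, by 0.31 (Cacng2) to 1.25 (Cacna1e) on the log2 scale with DMSO and by 0.50 (Cacna2d1) to 1.02 (Cacna1e) with GSK-126. Scn7a, Cacng5 and Cacng4 were lower in replicate 2, by -1.74, -1.23 and -0.90 with DMSO and by -1.70, -1.34 and -0.81 with GSK-126. The marker sums moved along with them. The granule neuron sum was highest in replicate 2 of both groups, and the astroglial sum was lowest there, at 2314 CPM with DMSO and 2157 CPM in GSK-126 libraries. The granule neuron sum was also lower with GSK-126 in each pair, as the 12 channel genes were, and its part in their falls was not tested.

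**Figure D4:**
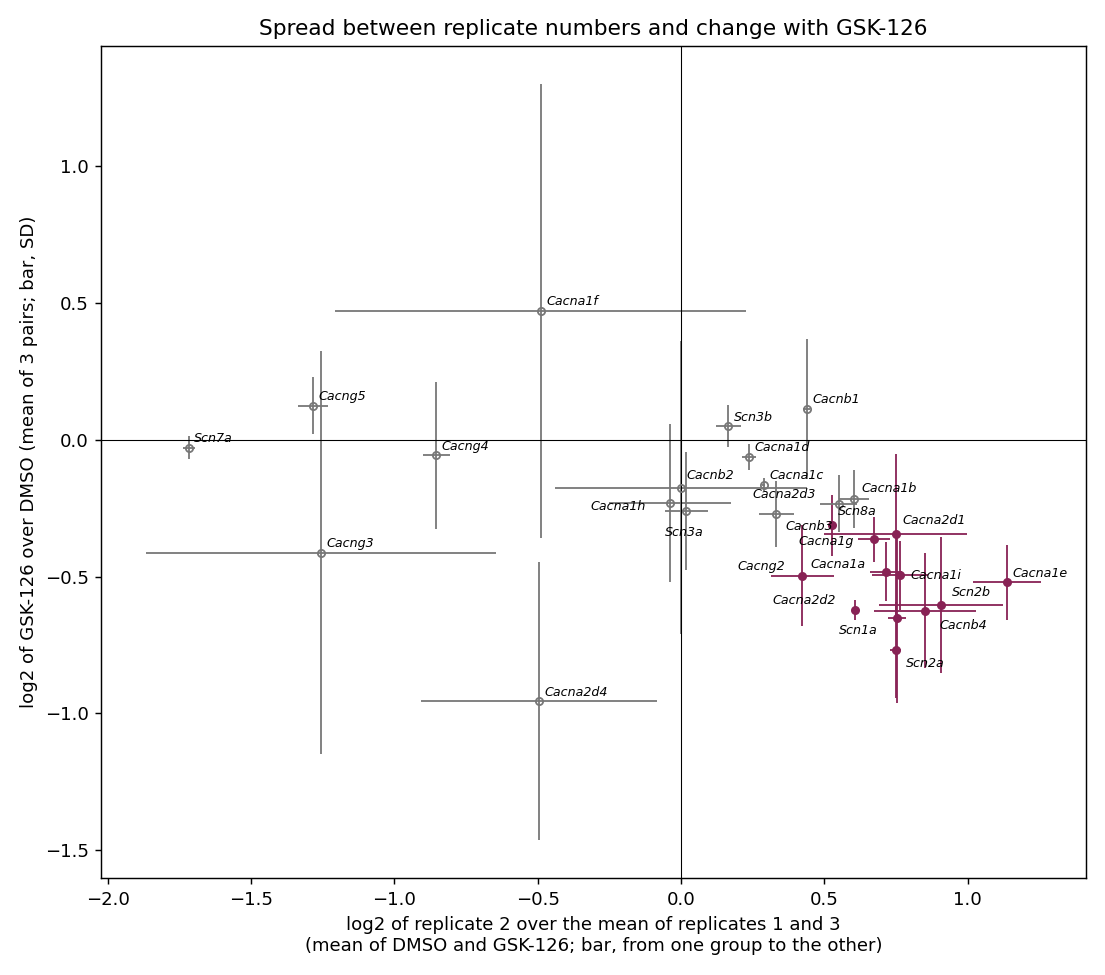
For the same 28 genes, the log2 ratio of replicate 2 over the mean of replicates 1 and 3 (horizontal, mean of the 2 groups, with a bar from one group to the other) against the log2 ratio of GSK-126 over DMSO (vertical, mean of 3 pairs with SD). The axes share libraries, and the 12 filled points, which are the genes that fell in edgeR with the block, all lie to the right of 0 and below it.

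The channels act with anchoring proteins, calcium sensors and other cation channels, and 53 such partner genes were listed by hand. The tables held 52 of them and 45 were tested. Without the block 0 were lower and 0 higher in edgeR and in DESeq2. With the block 19 of 45 (42.2%) were lower and 0 were higher in edgeR, where 5.09% and 3.35% of all genes were. DESeq2 with the block called 15 lower and 0 higher of the 35 to which it gave an adjusted p, where 5.52% and 3.28% of all such genes were called. The median log2 fold change without the block was -0.27, and 35 of the 45 were below 0, as were 8568 of all 16729 genes tested. Ppp3ca, a catalytic subunit of the calcium-activated phosphatase calcineurin, was at 742, 1193 and 758 CPM with DMSO and 483, 710 and 541 CPM in GSK-126 libraries, with no overlap. Camk2b, a calcium and calmodulin-dependent kinase subunit, was at 313, 529 and 337 CPM with DMSO and 218, 368 and 239 CPM in GSK-126 libraries. Unc80 and Unc79 encode parts of the sodium leak channel complex. Unc80 was at 88.5, 177 and 108 CPM with DMSO and 65.2, 89.8 and 69.2 CPM in GSK-126 libraries. Unc79 was at 42.1, 82.0 and 57.0 CPM with DMSO and 29.7, 47.5 and 40.2 CPM in GSK-126 libraries. Sptbn4, the spectrin of axon initial segments, was at 133, 232 and 156 CPM with DMSO and 94.3, 179 and 106 CPM in GSK-126 libraries, and 243 bp of its exons overlap Gm44924 on the opposite strand. Fgf12, a factor that binds the tail of sodium channel alpha subunits, was at 38.5, 80.2 and 38.5 CPM with DMSO and 29.8, 36.7 and 24.2 CPM in GSK-126 libraries, with no overlap. These 6 had the smallest p among the partners, with log2 fold changes from -0.73 (Fgf12) to -0.47 (Sptbn4). Their Benjamini-Hochberg adjusted p ran from 9.21e-06 (Ppp3ca) to 9.39e-04 (Fgf12) in edgeR with the block. The groups overlapped for Camk2b, Unc80, Unc79 and Sptbn4. Beside the separation of Ppp3ca and Fgf12, 4.72% of all genes tested had every GSK-126 library below every DMSO library.

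The other 11 channel genes stayed under 10 counts in 3 libraries. They included the pores of other tissues, with a highest count of 8 for Cacna1s and 4 for Scn4a, both of skeletal muscle. The sensory neuron genes Scn9a, Scn10a and Scn11a reached 17, 1 and 12 counts, and Cacng1 of skeletal muscle reached 3. Scn9a passed the filter of the test with a log2 fold change of 0.36 (standard error 0.57, Benjamini-Hochberg adjusted p = 0.77 in edgeR with the block). Scn4b, the beta subunit linked to resurgent current, had 1, 1 and 5 counts with DMSO and 9, 5 and 12 with GSK-126. These counts do not overlap as CPM, but the expression filter left Scn4b out of the fit. Without the filter its log2 fold change was 2.02 (standard error 0.99, Benjamini-Hochberg adjusted p = 0.853 in edgeR without the block). Cacng6, Cacng7 and Cacng8 were listed at 0 in every library. They lie next to each other on chromosome 7 between 3154658 and 3435667. This window of 7 protein-coding genes was drawn to stop before the first with more than 1 count. Past it, Tarm1 and Oscar reached 3 and 7 counts, and Ndufa3 further along had 228 to 446. Because the counts set the window, it cannot show why these 3 genes were at 0. Their zeros are not read as a lack of expression, and the cause was not tested.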

How the data were processed

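RNA of 3 DMSO and 3 GSK-126 libraries was measured. The authors enriched poly-A RNA, used Trimmomatic 0.38 and then STAR 2.7.2b on GRCm38.p4 (versions from the submitters' processing notes) and deposited raw HTSeq exon counts per gene. The Gencode release and strand setting are not given in the sources used here. The symbols match GENCODE M21, which gave coordinates and exon lengths.

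Counts were tested in R 4.3.3 with edgeR 4.0.16 (TMM, filterByExpr, quasi-likelihood test, Benjamini-Hochberg adjustment over 16729 genes) for GSK-126 against DMSO. The main fit had no block. A fit blocked by replicate number and DESeq2 1.42.0 were alternatives, beside other normalizations, filters and left-out libraries. Same-numbered libraries had correlated deviations from their group means (0.561, 0.634 and 0.487, against 0.00638 or less between different numbers), which is why the block is given. Pairing comes from the labels' numbers and this check. The biological coefficient of variation was 24% without and 9.74% with the block. CPM were scaled by TMM. No library was a copy of another (chi-square per degree of freedom 9.01 or more). The edgeR fits, but not DESeq2, were tested on simulated data. For the fit without the block those data had no replicate effect, unlike these libraries, so they cannot show how that fit does here. Precision is limited by 3 libraries per group and by depth.

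Genes with 10 or more counts in 3 libraries were named. The values of 2 channel genes are not reported here, and both stay in the counts. Full values are given for called genes, for the gene with the highest DMSO mean per length in each family, and for 6 partners. The channel genes and the lists were chosen with earlier results of these data known.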

Additional observations from a re-analysis of the deposited data

How the results depend on the processing

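Each alternative without the replicate block (DESeq2, upper-quartile factors, total counts, no filter, 10 counts in 3 libraries, each library left out) called 0 channel genes, as edgeR did without the block. With the replicate number as a block, the count of falls was 12 (11 with DESeq2 and the replicate block). The pairing behind the block is inferred from the labels' numbers and the check on these libraries. The block without replicate 1, 2 or 3 gave 11, 9 and 11 genes, all among the 12. Scn1a, Scn2b, Scn8a and Cacna2d1 lost their call in at least 1 of these. For the channel partners the block moved the falls from 0 to 19, and DESeq2 with the replicate block, an alternative chosen after seeing the data, gave 15. The cause was not tested.

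The median log2 fold change, -0.28, ranged from -0.40 to -0.15 with each library left out (-0.376 without DMSO replicate 1, -0.1495 without DMSO replicate 2, -0.3994 without GSK-126 replicate 2). The genes that follow changed sign. Upper-quartile factors gave 0.0046 for Cacng4 and 0.011 for Scn7a. The block without replicate 2 gave -0.0032 for Cacna1f and 0.12 for Cacnb2, and without replicate 3 it gave 0.10 for Cacng4. With each library left out, without the block, values ran from -0.44 to 0.0055 for Cacna1b, -0.12 to 0.032 for Cacna1d, -0.55 to 0.13 for Cacna1h, -0.59 to 0.013 for Cacna2d1, -0.029 to 0.28 for Cacnb1, -0.81 to 0.18 for Cacng3, -0.46 to 0.27 for Cacng4, -0.36 to 0.69 for Cacng5, -0.049 to 0.16 for Scn3b and -0.66 to 0.61 for Scn7a. Of the 12 falls, only Cacna2d1 changed sign, at 0.013 without DMSO replicate 2. Without that library and without the block the others moved to between -0.458 (Scn2a) and -0.015 (Cacna1e), with -0.083 for Cacna1g, -0.118 for Scn8a, -0.187 for Scn2b, -0.189 for Cacna1a and -0.241 for Cacnb4. Without GSK-126 replicate 2 the 12 ran from -1.03 (Scn2a) to -0.50 (Scn8a). In the fit with the replicate block, Cacna2d1 went from -0.35 to -0.18 without replicate 2.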
